A study of Gallus gallus with 6 samples.

Results

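The genes described here are those whose deposited name begins with RAB and a digit. There were 57 of them among 16963 genes, and 55 had at least 10 estimated counts over all 6 libraries. RAB38 (15 counts) and RAB3B (17) lay just inside that limit, and RAB3C (6) and RAB25 (5.2) just outside it. Of the 55, 48 encode RAB GTPases and 7 encode proteins named for the RABs they act on, namely RAB3GAP1, RAB3GAP2, RAB3IL1 and RAB11FIP1 to RAB11FIP4, so the name rule takes in more than the GTPases themselves. RAB1A, RAB6B, RAB13 and RAB27B were not analysed here.

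RAB proteins are small GTPases that switch between a GTP-bound form on membranes and a GDP-bound form that can be withdrawn into the cytosol. Each marks particular compartments and recruits the tethers, motors and adaptors that move and fuse vesicles there. Exchange factors load GTP and activating proteins speed its hydrolysis. The roles named below are known mostly from mammalian cells.

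The RNA came from chicken ovarian adenocarcinoma cells of ascites fluid, kept in culture as 3 primary lines, C27, C29 and C30. Confluent cultures on gelatin-coated plastic were taken up with trypsin and sorted by flow cytometry for aldehyde dehydrogenase (ALDH) activity, a property used to enrich stem-like tumour cells. Each line gave an ALDH+ and an ALDH- library, so each fraction had 3 libraries. The ALDH assay, its gate and the number of hens behind each line are not given in sources used here. The spread between these libraries is therefore all that the p-values measure.

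Estimated counts totalled 22170788 to 26747453 in ALDH+ and 22926423 to 25383715 in ALDH- libraries. Of 24 listed macrophage and monocyte markers 19 were found by name and none was at 0 in either fraction. Of the 18 tested, 16 fell in ALDH+ cells (edgeR, adjusted p under 0.05). Summed over all 19 genes found, the level was 259.4 to 551.3 CPM in ALDH+ and 5857 to 11590 CPM in ALDH- libraries. CPM are counts-per-million values, scaled by TMM factors that correct for library composition. The scavenger receptor gene MARCO, for example, stood at 42.2 ± 17.9 CPM in ALDH+ and 2473 ± 1461 CPM in ALDH- cells (SD, n = 3 each). Among lymphocyte markers 5 of 8 tested fell, and among heterophil and mast cell markers 4 of 6. Of 3 tested erythroid and thrombocyte markers 1 fell, while the sum of that list was not lower in ALDH+ in any line. None of 12 fibroblast and 4 mesothelial markers passed, though all of them had log2 changes above 0. Summed fibroblast markers were higher in ALDH+ in each line, with log2 CPM ratios of 0.33, 1.09 and 0.58 (C27, C29, C30). Summed mesothelial markers were too, at 0.81, 1.36 and 1.53. Epithelial markers, which the tumour type on the labels would carry, were uneven. Of 5 tested, 1 fell, namely E-cadherin (CDH1), and the other 4 did not pass. Keratin 7 (KRT7) had 1322 ± 638 TPM (transcripts-per-million values, which correct for transcript length) in ALDH+ and 685 ± 507 TPM in ALDH- cells, while EPCAM was near absent at 1.21 ± 1.08 TPM in ALDH+ and 0.637 ± 0.534 TPM in ALDH- cells (SD, n = 3 each). The collagen gene COL1A1 was far above both at 6120 ± 1957 TPM in ALDH+ and 3356 ± 1831 TPM in ALDH- cells. On the TPM scale the median log2 difference of all genes was 0.36, so gaps in TPM lean towards ALDH+. By CPM, summed epithelial markers had log2 ratios of 0.38, 0.99 and 0.67 (C27, C29, C30). On principal components of log2 CPM the ALDH- library of C30 lay farthest out on the first and the ALDH+ library of C30 apart on the second. In bulk RNA, fewer cells of a type and less RNA per cell cannot be told apart.

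Of the 52 RAB genes tested, 45 had log2 changes within 1 unit of 0 (86.5%, against 80.9% of all genes). The 95% interval lay within 1 unit for only 25 of the 52, so similar levels were not shown for the others. In ALDH+ cells 4 GTPase genes were far lower. RAB17, RAB37, RAB20 and RAB32 fell by 4.98, 4.01, 3.13 and 2.91 on the log2 scale. No RAB gene rose (edgeR quasi-likelihood test, Benjamini-Hochberg adjusted p under 0.05 over 12811 genes). Of the 52 RAB genes that passed the filter on low counts, 4 (7.69%) were lower, against 5.3% of all genes tested, and 0 were higher, against 0.835% (6.14% of all genes in either direction). The share of lower calls was thus close to that among all genes. At an unadjusted p under 0.05 the number of RAB genes in either direction was 12 (23.1%, against 20.6% of all genes). DESeq2 also called 0 RAB genes higher, and 654 over all genes. The median log2 change of the 52 was 0.02, and 0 over all genes.

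Because each line gave both fractions, a second fit took the line in as a block. It called 6 RAB genes lower (11.5%, against 7.6% of all genes) and 1 higher (1.92%, against 5.92%), where 13.5% of all genes passed in either direction. The added genes were RAB29 and RAB3IL1, which fell, and RAB11FIP2, which rose. All 4 genes called without the block were called with it. Among marker lists, 4 fibroblast and 2 mesothelial genes rose in the blocked fit. So did 1 epithelial (KRT18) and 1 endothelial gene (ERG). MRC2 rose too (1.39, edgeR adjusted p = 0.00733), while 16 genes of the macrophage list fell. It was placed in that list, but was not shown here to mark macrophages. Of the 3 endothelial markers tested, 1 fell in each fit. Summed endothelial markers were lower by CPM in ALDH+ in each line, with log2 ratios of -1.76, -1.41 and -0.46 (C27, C29, C30). By TPM the sum was lower in C27 and C29 but higher in C30, at 40.4 in ALDH+ against 20.7 in ALDH-.

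**Figure D1:**
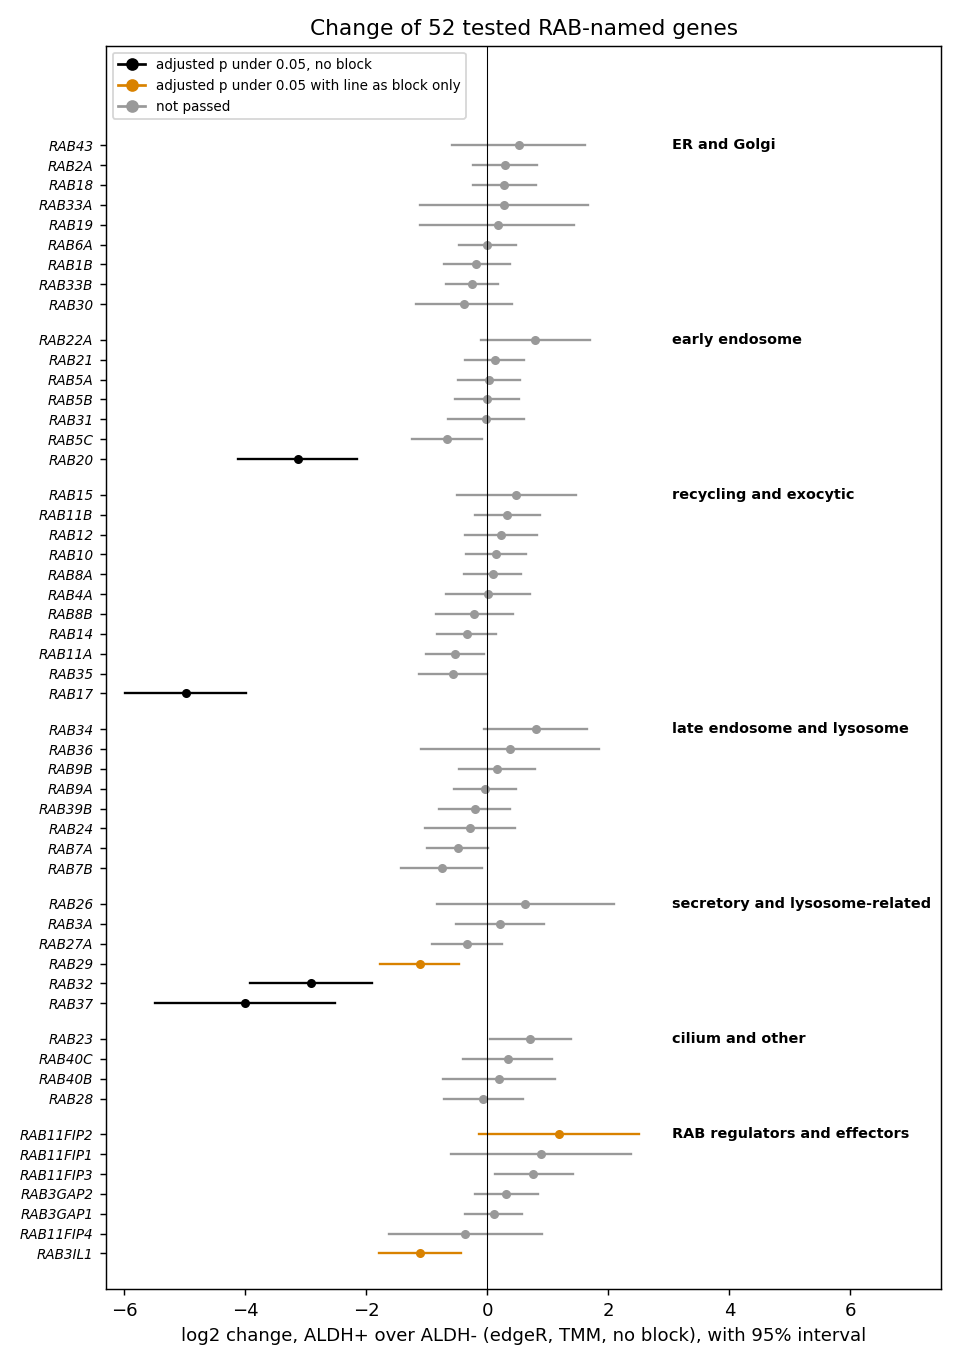
Log2 change between ALDH+ and ALDH- cells (horizontal axis) for the 52 RAB genes tested, grouped by role, with the 95% interval of each gene, not adjusted for the number of genes. Black points passed without the block, orange points passed with the line as a block only, and RAB17 at -4.98 lies farthest from 0.

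RAB17 (ENSGALG00000003899) encodes a GTPase described in mammals in polarised epithelial cells, where it takes part in recycling and transport across the cell. It had 1.85, 1.94 and 0.767 CPM in ALDH+ cells of C27, C29 and C30, against 39.9, 43.0 and 61.3 CPM in ALDH- cells. The highest ALDH+ value was thus far below the lowest ALDH- value. The log2 change was -4.98 (standard error, SE, 0.43, adjusted p = 0.0011, edgeR), and the gene was lower in ALDH+ in all 3 lines. Per length, levels ranged from 1.13 to 2.71 TPM in ALDH+ libraries and lay close together in ALDH- libraries, at 48.0 to 54.0 TPM. In ALDH- cells that put RAB17 beside broadly expressed GTPase genes such as RAB5B (42.6 ± 10.3 TPM, SD, n = 3). E-cadherin (CDH1), an epithelial adhesion gene, fell too, with 1.21 ± 0.42 CPM in ALDH+ and 20.5 ± 25.2 CPM in ALDH- cells (SD, n = 3 each; log2 change -4.08, edgeR adjusted p = 0.0471). Its ALDH- level was carried by C30 (49.5 CPM). In the fit with no block, the call ended without that library (edgeR adjusted p = 0.0869) or without each ALDH+ library in turn (0.111 to 0.15). With the block, CDH1 was called lower without C27 (-3.32, edgeR adjusted p = 0.0493), C29 (-4.28, 1.16e-05) or C30 (-2.48, 0.0157). The other 4 of the 5 tested epithelial markers had log2 changes above 0, from 0.18 to 1.48. None of them passed without the block, and KRT18 rose with it.

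RAB20 (ENSGALG00000016844) encodes a GTPase of early endosomes and maturing phagosomes. It had 10.1, 11.1 and 7.26 CPM in ALDH+ cells of C27, C29 and C30, against 43.5, 76.4 and 129.3 CPM in ALDH- cells. The fractions did not overlap, and C30 had both the lowest ALDH+ and the highest ALDH- value. The log2 change was -3.13 (SE 0.43, adjusted p = 0.00417, edgeR), lower in all 3 lines. The other 6 early endosome genes did not pass. RAB5C, the most abundant of them, had 181 ± 20.4 CPM in ALDH+ and 286.6 ± 69.4 CPM in ALDH- cells (SD, n = 3 each; log2 change -0.66, edgeR adjusted p = 0.183). The log2 changes of RAB5A, RAB5B and RAB31, at 0.03, -0.01 and -0.02, were smaller than their SE.

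RAB32 (ENSGALG00000012300) acts in the making of lysosome-related organelles and in phagosomes. It had 7.48, 4.97 and 2.50 CPM in ALDH+ cells of C27, C29 and C30, against 37.6, 28.2 and 47.1 CPM in ALDH- cells, again without overlap. The log2 change was -2.91 (SE 0.44, adjusted p = 0.00652, edgeR), lower in all 3 lines. RAB38, its close relative in the same organelles, was nearly undetected, with 10, 2 and 0 counts in the ALDH+ libraries and 1 count in each ALDH- library, and was not tested. RAB29, another relative, which acts with the kinase LRRK2 at the Golgi and lysosomes, had 40.5, 51.6 and 26.6 CPM in ALDH+ libraries, against 93.9, 72.4 and 90.5 CPM in ALDH- libraries. Its log2 change of -1.11 (SE 0.28) did not pass without the block (edgeR adjusted p = 0.062). In the blocked fit it fell by 1.16 (SE 0.28, edgeR adjusted p = 0.0363). That call ended when C27 (edgeR adjusted p = 0.156) or C30 (0.0703) was left out.

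RAB37 (ENSGALG00000027789) is known from secretory granules, among them those of mast cells. It was a low gene, with 11, 11 and 3 counts in ALDH+ cells of C27, C29 and C30, against 173, 60 and 135 counts in ALDH- cells. In CPM that was 0.369, 0.497 and 0.121 in ALDH+, against 6.55, 2.75 and 6.72 in ALDH- libraries, so the fractions did not overlap. The log2 change was -4.01 (SE 0.64, adjusted p = 0.00923, edgeR), lower in all 3 lines. RAB26, the GTPase most like it, also acts on secretory granules. It had 1.60 ± 1.17 CPM in ALDH+ and 1.04 ± 0.37 CPM in ALDH- cells (SD, n = 3 each; log2 change 0.63, edgeR adjusted p = 0.607), and its lines went in opposite directions.

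**Figure D2:**
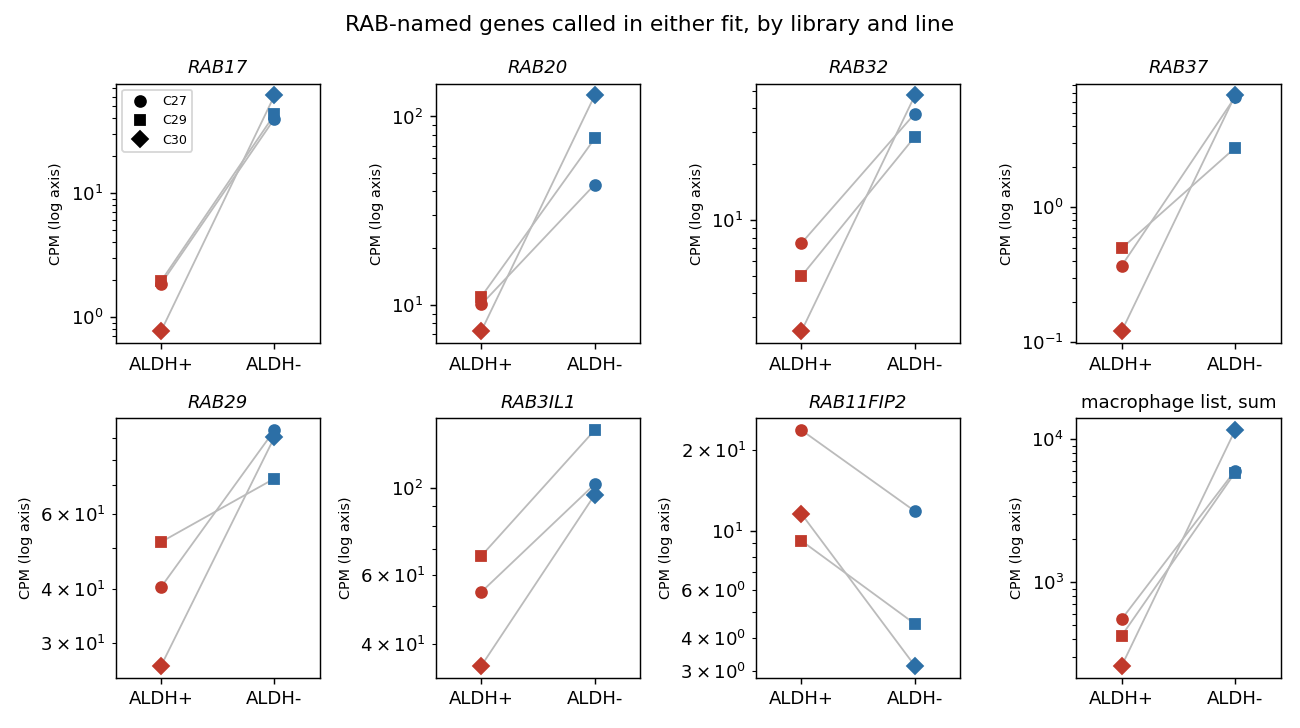
CPM on log axes in ALDH+ (left) and ALDH- (right) libraries for the 7 RAB genes called with or without the block, and for the summed macrophage marker list. Each symbol is a library, and grey lines join both libraries of a line. RAB11FIP2 is higher in ALDH+ in each line, and the other 6 genes and the marker sum are lower.

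The 4 GTPase genes moved by unequal amounts in the 3 lines, and each moved most in C30. The log2 CPM difference of RAB17 between ALDH+ and ALDH- was -4.37 in C27, -4.41 in C29 and -6.18 in C30. It was -3.88, -2.29 and -5.06 for RAB37, -2.10, -2.78 and -4.14 for RAB20, and -2.32, -2.48 and -4.19 for RAB32, in the same order of lines. The summed macrophage list differed by -3.46, -3.79 and -5.48. Summed lymphocyte markers differed by -3.88, -4.15 and -4.50, and summed heterophil and mast cell markers by -3.44, -4.39 and -5.14. Leukocyte markers thus fell beside all 4 genes in each line, and also most in C30. Their part in these changes was not tested. A test of whether the lines differ in the change is not possible with 1 library per line and fraction.

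The 4 calls held when each of the 6 libraries was left out in turn. The highest adjusted p in those edgeR fits was 0.0124 for RAB17, 0.0261 for RAB20, 0.0424 for RAB32 and 0.0424 for RAB37. In the authors' deposited table of transcripts, RAB20, RAB32 and the main RAB37 transcript had log2 changes of -3.1, -2.9 and -4.0. Of the 3 RAB17 transcripts there, 2 were called, at -4.8 and -5.4. The third had -4.2 with a SE of 1.8 and an adjusted p of 1.0 in the authors' deposited table.

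The remaining GTPases of secretion did not pass. RAB27A, which docks lysosome-related and secretory granules at the cell surface, was the most abundant GTPase gene in this group over all libraries, with 23.5 ± 8.36 TPM in ALDH+ and 18.6 ± 4.09 TPM in ALDH- cells (SD, n = 3 each). Its log2 change by counts was -0.34 (SE 0.25, edgeR adjusted p = 0.485). By CPM it was lower in ALDH+ in each line, while its mean TPM was higher, so the measures differed in sign. RAB3A, the GTPase of synaptic vesicle and granule release, had a log2 change of 0.21 (SE 0.31). RAB3B stayed at 3 counts in all over the ALDH+ and 14 over the ALDH- libraries, and was not tested.

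None of the 9 ER and Golgi genes passed, with log2 changes between -0.39 and 0.52. RAB1B, which acts in traffic from the ER to the Golgi, led this group with 252, 250 and 311 TPM in ALDH+ cells of C27, C29 and C30, against 245, 244 and 195 TPM in ALDH- cells. The lowest value was that of the ALDH- library of C30, and the others lay close together except for the ALDH+ library of C30. Its log2 change by counts was -0.18 (SE 0.24, edgeR adjusted p = 0.709). RAB1B was thus lower in ALDH+ by CPM in each line but higher by TPM in each. RAB2A, also of this step, had 217.6 to 270.6 CPM in ALDH+ and 159.7 to 217.6 CPM in ALDH- libraries, so that the fractions did not overlap but came within rounding of each other, and its log2 change was 0.29 (SE 0.23, edgeR adjusted p = 0.508). RAB6A, a Golgi GTPase, had a log2 change of 0.00 (SE 0.21).

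The 8 tested genes of late endosomes and lysosomes did not pass either, with log2 changes between -0.75 and 0.80. RAB7A, the GTPase that drives late endosome and lysosome fusion, had the highest mean TPM of the family over the 6 libraries, though RAB1B was above it in the ALDH+ library of C30 and RAB34 in that of C29. It stood at 300, 267 and 293 TPM in ALDH+ cells of C27, C29 and C30, against 325, 291 and 268 TPM in ALDH- cells. These values overlapped. By counts it did not overlap, at 294 to 329 CPM in ALDH+ and 389.6 to 493.7 CPM in ALDH- libraries, with a log2 change of -0.48 (SE 0.22, edgeR adjusted p = 0.263). RAB34, which positions lysosomes and takes part in cilium formation, lay on the other side. It had 98.7, 219 and 94.3 CPM in ALDH+ cells of C27, C29 and C30, against 73.5, 98.4 and 65.1 CPM in ALDH- cells. The ALDH+ library of C29 stood apart, and the log2 change was 0.80 (SE 0.37, edgeR adjusted p = 0.268).

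Of the 11 tested recycling and exocytic GTPases RAB17 alone passed, and the other 10 had log2 changes between -0.57 and 0.48. RAB11A and RAB11B, near-identical GTPases of the recycling endosome, had changes of opposite sign, at -0.53 (SE 0.21, edgeR adjusted p = 0.204) and 0.33 (SE 0.23, edgeR adjusted p = 0.461). RAB11A made up 48.8, 49.0 and 55.4% of the RAB11A and RAB11B TPM in ALDH+ libraries, against 62.0, 60.6 and 73.1% in ALDH- libraries of C27, C29 and C30. The shares did not overlap. RAB5C likewise made up 58.9 to 60.3% of RAB5 TPM in ALDH+ and 64.4 to 77.9% in ALDH- libraries. These shares were chosen after their values were seen and carry no test, and reads of close relatives can be split by the counting.

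**Figure D3:**
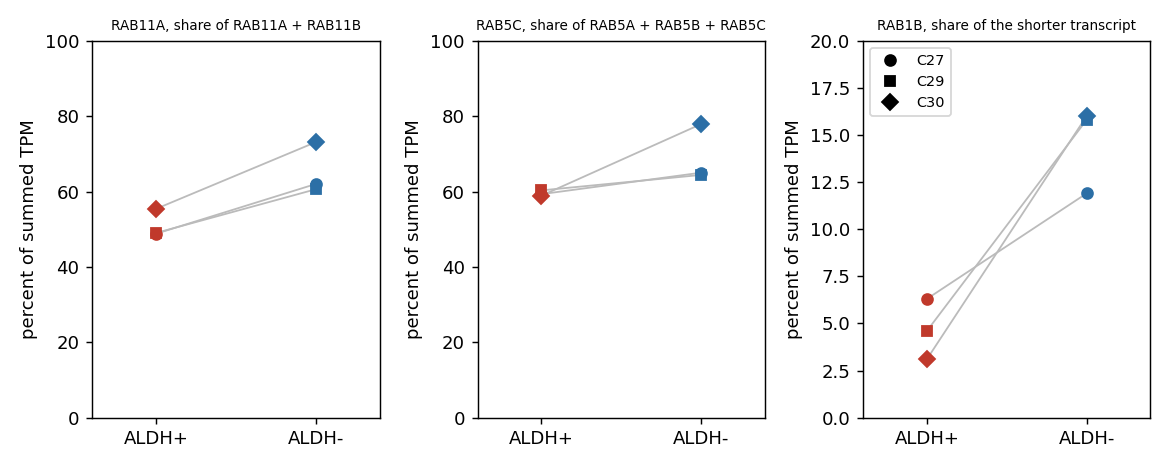
Shares of summed TPM (percent, vertical axes) in ALDH+ (left) and ALDH- (right) libraries of each line. RAB11A is 48.8 to 55.4% of RAB11 in ALDH+ and 60.6 to 73.1% in ALDH- libraries, and the shorter RAB1B transcript is 3.1 to 6.3% in ALDH+ and 11.9 to 16% in ALDH- libraries.

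The RAB1B gene held a difference between its 2 transcripts that its gene sum did not show. The shorter one (ENSGALT00000071042, 2565 bases) made up 6.3, 4.6 and 3.1% of RAB1B TPM in ALDH+ cells of C27, C29 and C30, against 11.9, 15.8 and 16.0% in ALDH- cells. In the authors' deposited table this transcript had a log2 change of -1.9 (SE 0.34, adjusted p = 0.000992), and the longer one (ENSGALT00000083942, 2687 bases) 0.0 (SE 0.21). It was the only transcript with an adjusted p under 0.05 in the authors' deposited table that belongs to a RAB gene outside the 4 described above. Transcript values are estimates, and reads of a near-identical copy such as RAB1A could be counted in either, so the split is uncertain. RAB1B was not alone in such a shift. A RAB27A transcript of 946 bases made up 37.6, 16.5 and 22.1% of RAB27A TPM in ALDH+ cells of C27, C29 and C30. In ALDH- cells it made up 15.9, 1.3 and 7.3%. It was not called in the authors' deposited table (log2 change 1.6, SE 1.0).

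Among the 7 RAB regulators and effectors none passed without the block. RAB3IL1 (ENSGALG00000007203) encodes an exchange factor for RAB3A and RAB8. It had 54.4, 67.2 and 35.2 CPM in ALDH+ cells of C27, C29 and C30, against 102.5, 140.8 and 96.3 CPM in ALDH- cells, without overlap. Its log2 change was -1.11 (SE 0.29, edgeR adjusted p = 0.0718), and the blocked fit called it lower, where it fell by 1.14 (SE 0.21, edgeR adjusted p = 0.0142). Without C27 that call ended (edgeR adjusted p = 0.0663). The macrophage marker sum was lower in ALDH+ beside RAB3IL1 and RAB29 in each line, and its part in these changes was not tested.

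RAB11FIP2 (ENSGALG00000009304) encodes an adaptor between RAB11 and the motor myosin Vb. It had 23.7, 9.16 and 11.5 CPM in ALDH+ cells of C27, C29 and C30, against 11.8, 4.50 and 3.14 CPM in ALDH- cells. The fractions overlapped, since the ALDH- library of C27 exceeded 2 ALDH+ libraries, but ALDH+ was higher in each line. The log2 change was 1.19 (SE 0.57, edgeR adjusted p = 0.29), and with the block it rose by 1.29 (SE 0.29, edgeR adjusted p = 0.0296). This call ended without C27 (edgeR adjusted p = 0.0904) or C30 (0.0681). With no block, the size of the change depended on the C27 libraries, which were the highest of each fraction. Leaving out the ALDH+ library of C27 gave 0.68 and leaving out its ALDH- library 2.01. Within lines the log2 CPM difference was 1.0 in C27, 1.01 in C29 and 1.85 in C30. With the block, the change was 1.48 without C27, 1.41 without C29 and 1.01 without C30. Summed fibroblast and mesothelial markers were higher in ALDH+ beside RAB11FIP2 in each line, and their part in this change was not tested. The related adaptor RAB11FIP3 had a log2 change of 0.76 (SE 0.28, edgeR adjusted p = 0.174) and RAB11FIP1 of 0.89 (SE 0.64), while RAB11FIP4 had -0.37 (SE 0.55). The subunits of the RAB3 activating complex, RAB3GAP1 and RAB3GAP2, which also serves as exchange factor for RAB18, had 0.11 (SE 0.21) and 0.31 (SE 0.22).

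The 4 genes placed with the cilium or elsewhere did not pass, with log2 changes between -0.07 and 0.71. RAB28, a GTPase of cilia and photoreceptors with the highest TPM among them, had 8.73 ± 0.26 CPM in ALDH+ and 9.14 ± 1.58 CPM in ALDH- cells (SD, n = 3 each). RAB23, which restrains Hedgehog signalling, had the largest change of the group at 0.71 (SE 0.29, edgeR adjusted p = 0.219).

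Levels across the family spanned several orders of magnitude. Of the 48 GTPase genes, 44 had a mean of at least 1 TPM over all libraries, 35 at least 10 and 9 at least 100. These 9 were, from the highest, RAB7A, RAB1B, RAB5C, RAB34, RAB2A, RAB6A, RAB11A, RAB18 and RAB10, with means of 291 to 114 TPM. The 5 highest genes of each library held 40.2 to 45.7% of all RAB GTPase TPM in ALDH+ and 40.8 to 46.1% in ALDH- libraries. RAB GTPase TPM summed to 2836, 2587 and 2659 in ALDH+ cells of C27, C29 and C30, against 2624, 2264 and 1913 in ALDH- cells. On the TPM scale the median log2 difference of all genes was 0.36. Each line was higher in ALDH+, while the C27 ALDH- library lay within the ALDH+ range.

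**Figure D4:**
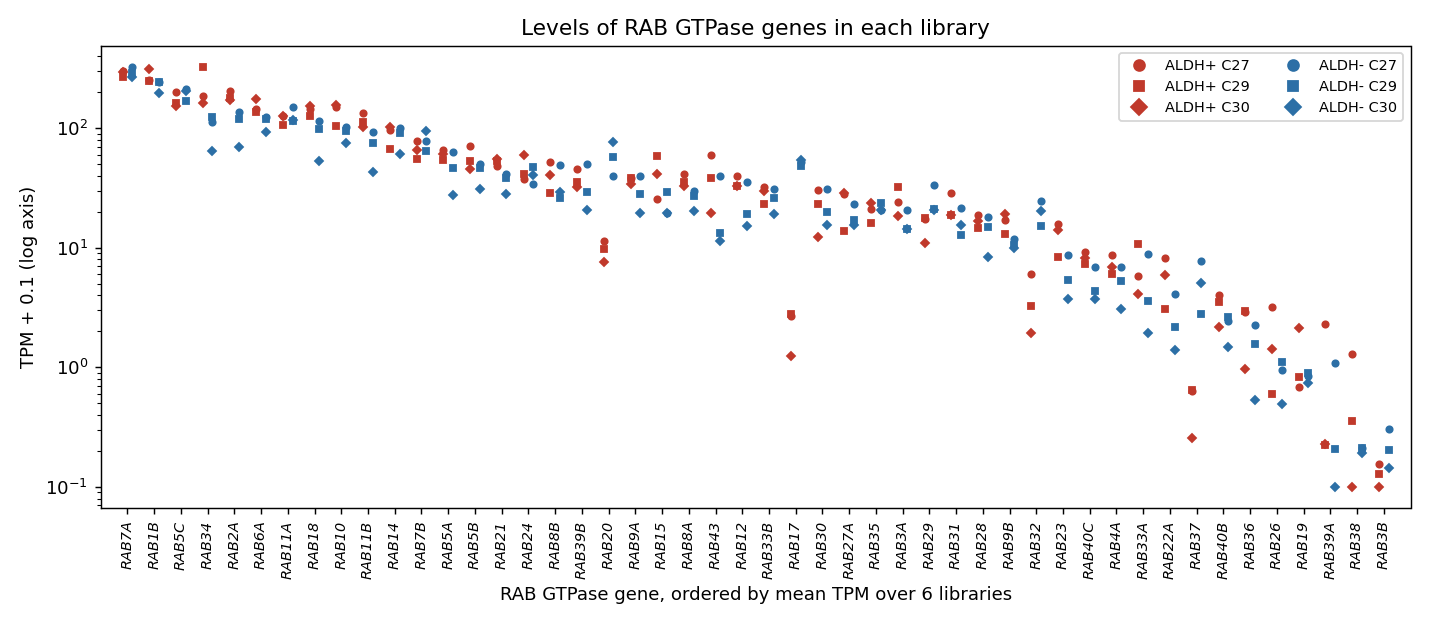
TPM (log axis, 0.1 added) of the 48 RAB GTPase genes in each library, ordered by the mean over 6 libraries, with ALDH+ on the left of each gene. RAB17, RAB20, RAB32 and RAB37 show the widest gaps between the fractions on this axis, with ALDH+ lower. Smaller gaps with ALDH+ higher occur too, as in RAB2A and RAB34, but neither gene passed without the block. On the TPM scale the median log2 difference of all genes was 0.36. The genes to the right of RAB26 have means under 1 TPM.

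Of the 52 genes, 48 did not pass, and their log2 changes lay between -1.11 and 1.19 with SEs of 0.19 to 0.64. For 25 of the 52 the 95% interval of the change lay within 1 log2 unit on either side of 0, which held for 31.2% of all genes tested. For the others that did not pass, the interval reached a change of that size. The ALDH+ and ALDH- libraries did not overlap for 15 RAB genes, 12 of them lower in ALDH+ (23.1%, against 14.6% of all genes) and 3 higher (5.77%, against 11.2%). Within lines, 14 were higher in ALDH+ in all 3 (26.9%, against 28.4%) and 18 lower in all 3 (34.6%, against 27.8%).

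The lines themselves did not differ in any RAB gene past the threshold. With the fraction in the model, the F test of the line terms called 0 of 52 RAB genes, against 0.367% of all genes (edgeR adjusted p under 0.05). At an unadjusted p under 0.05 there were 8 (15.4%, against 19.9% of all genes). In limma on log2(TPM + 1), RAB11FIP2, RAB36 and RAB43 passed (5.88%, against 9.32%). With so few calls, these shares do not set RAB genes apart from all genes. RAB43, a Golgi and phagosome GTPase, had 59.2, 38.4 and 19.5 TPM in ALDH+ cells of C27, C29 and C30, against 39.9, 13.3 and 11.3 TPM in ALDH- cells. By TPM, C27 was the highest and C30 the lowest in both fractions. By CPM, C29 was the lowest in ALDH- cells (26.5, against 28.3 in C30). When the ALDH+ library of C29 was left out, edgeR called 2 RAB genes between lines, and 5 without the ALDH- library of C29. Over all genes those fits called 1593 and 1985, against 47 with every library.

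Genes that act on RABs without carrying the name were tested in the same fits. Of 4 tested genes for prenylation and extraction of RABs none passed in either fit (edgeR). Of 26 exchange factor genes and 30 GTPase-activating genes none passed without the block, against 6.14% of all genes. With the block 1 of the 26 and 1 of the 30 rose, against 5.92% of all genes, and none fell, against 7.6%. These were DENND5A, a RAB6-binding exchange factor for RAB39 (1.19, SE 0.25, edgeR adjusted p = 0.0258), and TBC1D14, which binds RAB11 and acts in autophagy (1.17, SE 0.26, edgeR adjusted p = 0.0278). Without C30 both calls ended (edgeR adjusted p = 0.0528 and 0.0593), and without C27 that of TBC1D14 (0.0878). Summed fibroblast and mesothelial markers were higher in ALDH+ beside both genes in each line, and their part was not tested.

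Of 42 tested RAB effector genes, 2 fell (4.76%, against 5.3% of all genes). With the block 3 fell (7.14%, against 7.6%) and 3 rose (7.14%, against 5.92%), so the shares were near those of all genes. EXOC6, an exocyst subunit that binds RAB11, had 19.1, 18.4 and 15.7 CPM in ALDH+ cells of C27, C29 and C30, against 49.4, 38.2 and 70.8 CPM in ALDH- cells. Its log2 change was -1.58 (SE 0.29, edgeR adjusted p = 0.0161). OSBPL1A, a cholesterol sensor that binds RAB7, had 13.4 ± 1.65 CPM in ALDH+ and 31.4 ± 7.34 CPM in ALDH- cells (SD, n = 3 each), with a log2 change of -1.23 (SE 0.27, edgeR adjusted p = 0.0357). Neither gene overlapped between the fractions. Without each ALDH+ library in turn, or without the ALDH- library of C30, the EXOC6 call ended (edgeR adjusted p of 0.0564 to 0.0714). The OSBPL1A call held without the ALDH- library of C29 (0.0451) and ended without each of the others (0.0668 to 0.185).

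UNC13D, a RAB27A effector that primes cytotoxic and secretory granules, fell with the block only. It had 15.4, 24.9 and 27.6 CPM in ALDH+ cells of C27, C29 and C30, against 43.1, 72.0 and 252 CPM in ALDH- cells. The ALDH- library of C30 stood apart, with a log2 change of -2.06 (SE 0.37, edgeR adjusted p = 0.0145) with the block and -2.43 (edgeR adjusted p = 0.0685) without it. Leaving that library out gave -1.29 (edgeR adjusted p = 0.149) in the fit without the block. The call with the block held without C27 (-2.33, edgeR adjusted p = 0.0221), C29 (-2.34, 0.000599) or C30 (-1.51, 0.00352). The 3 effectors that rose with the block, named after their values were seen, were the RAB5 effector APPL1 (1.10), the RAB7 transport adaptor FYCO1 (1.10) and the RAB3 effector RIMS2 (1.98), with edgeR adjusted p values of 0.0457, 0.0327 and 0.036. Each of these 3 calls ended without C27 (edgeR adjusted p = 0.204, 0.082 and 0.0519) and without C30 (0.0809, 0.0905 and 0.103), and that of APPL1 also without C29 (0.0712). RIMS2 was a low gene, with 67, 46 and 64 counts in ALDH+ cells of C27, C29 and C30, against 27, 7 and 10 in ALDH- cells. The summed macrophage markers fell beside EXOC6, OSBPL1A and UNC13D in every line, and their part in these changes was not tested. Nor was that of the summed fibroblast and mesothelial markers, which were higher in ALDH+ beside APPL1, FYCO1 and RIMS2 in every line.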

How the data were processed

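The authors deposited estimated counts (expected counts) and TPM per transcript for 6 libraries of paired-end reads. The authors' table of comparisons holds a deposited signal per library (count over a size factor), a ratio, log2 fold changes, a Wald score and p-values per the file headers. Lengths are other deposited values. The submitters' processing notes name FastQC, Trimmomatic, HISAT2, kallisto, DESeq2 and GRCg6a, without versions. Positions and sequences are not used here.

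Counts of 28756 transcripts were summed to 16963 genes by deposited gene ID and rounded (319 transcripts without an ID, 0.285 to 0.328% of counts, were left out). edgeR 4.0.16 in R 4.3.3 (TMM, filterByExpr with minimum count 10 and minimum total 15, quasi-likelihood F test, two-sided) was fitted over all 12811 genes passing the filter. SEs derive from the F statistic. The paired fit adds the line. Deviations from the fraction means correlated within lines at r = 0.66, 0.17 and 0.49 (C27, C29, C30), and the labels give both fractions of a line the same line name and replicate number. Per-line differences use log2 CPM with a prior count of 2. DESeq2 1.42.0 and limma 3.58.1 gave alternatives. The code was tested on simulated counts.

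Members and lists were chosen with earlier results of these data known. Named are all called members, the highest by TPM in each role group, and up to 3 called genes per partner list by unadjusted p with the block. Other genes were chosen after their values were seen.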

Additional observations from a re-analysis of the deposited data

Results flagged for a closer look

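RAB26, a GTPase of secretory granules, went in opposite directions in 2 lines by more than 1 log2 unit. Its log2 CPM difference between ALDH+ and ALDH- was 1.48 in C27 and -1.17 in C29, and 0.86 in C30. Counts were 86, 13 and 33 in ALDH+ cells of C27, C29 and C30, against 26, 31 and 14 in ALDH- cells. With 1 library per line and fraction the difference between lines was not tested.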

How the results depend on the processing

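RAB17, RAB20, RAB32 and RAB37 were called lower in all 22 alternatives, with log2 changes from -5.31 to -4.10, -3.44 to -2.45, -3.33 to -2.24 and -4.74 to -2.04. The count of RAB genes lower was 4 of 52 without each library in turn, against 425 to 753 of 12975 to 13119 genes. With the block and 1 line left out it was 4 to 6 of 52, against 699 to 1307 of 12758 to 13019 genes. The count of RAB genes higher was 0 without the block in every alternative. It was 1 with the replicate block and 1 with the block and upper quartile factors. With the block and library size only it was 2 (RAB34 and RAB11FIP2). Over all genes 758, 1066 and 1269 of 12811 were higher in these fits, where 52 RAB genes were tested. With the block on log2(TPM + 1) it was 7 of 51 RAB genes, against 2392 of 11652 genes. With the block and 1 line left out, a setting chosen after seeing the data, it was 0 to 3 of 52, against 311 to 1047 of 12758 to 13019 genes. The 7 were RAB11FIP2, RAB11FIP3, RAB22A, RAB23, RAB2A, RAB34 and RAB43. On log2 TPM the median of all genes moved to 0.36 and that of RAB genes to 0.43, so small changes depend on the scale, and RAB29 (limma adjusted p = 0.113) and RAB3IL1 (0.123) lost their block calls there. DESeq2 called RAB29 (adjusted p = 0.0159) and RAB3IL1 (0.0177) lower without a block. None of the 7 genes called with or without the block changed direction in these alternatives. The count of RAB genes that differ between lines was 0 to 5 of 52 without each library in turn, also chosen after seeing the data. Over all genes those fits called 45 to 1985 of 12975 to 13119. On log2(TPM + 1) it was 3 of 51 RAB genes, against 1086 of 11652 genes.

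Over all genes 107 were higher without the block, 758 with the replicate block, 654 in DESeq2, 1066 and 1269 with the block and upper quartile factors or library size only, 2392 with the block on log2(TPM + 1), 268 on log2(TPM + 1) and 238 on log2(TPM + 0.1). Lower genes numbered 679, and 432 on unfiltered log2(TPM + 1). Leaving out 1 library gave 13 to 370 higher and 425 to 753 lower, and leaving out 1 line with the replicate block gave 311, 427 and 1047 higher (without C27, C30 and C29) and 699 to 1307 lower. Of called genes, 13.6% were higher, 34.7% on log2(TPM + 1), 43.8% with the block and 76% with the block on log2(TPM + 1). At under 20 counts, RAB38 and RAB3B allow no statement on change.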
